A study of Mus musculus with 6 samples.

Results

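The cytochrome P450 genes of the liver were compared between Mul1(+/+) and Mul1(-/-) mice on a high-fat diet (HFD). The members are the genes of the deposited table whose symbol begins with Cyp and a digit, without pseudogenes marked -ps. There were 25 of them among 3542 genes, and 2 pseudogenes were left out. They comprise 17 genes of the Cyp2 family, 4 of Cyp4, 2 of Cyp3, and Cyp1b1 and Cyp8b1 alone in their families. GENCODE M21 annotates 100 protein-coding Cyp genes in the mouse, and those outside the table were not analysed here.

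The study sequenced mRNA from liver tissue of 3 Mul1(+/+) mice and 3 Mul1(-/-) mice. Mul1 encodes an E3 ubiquitin ligase of the outer mitochondrial membrane, and Mul1(-/-) is the label of mice with the gene disrupted in the whole body, so that a difference in liver may arise in liver cells or elsewhere. They came from crosses of heterozygous Mul1(+/-) animals. All 6 mice received HFD, with 60% of calories from fat, for 16 weeks from 8 weeks of age. Both sexes were used in the study, and the labels give no sex for any library. The labels name the cell type as hepatocytes, but the samples are whole liver tissue, which also holds bile duct, stellate, endothelial and immune cells.

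Values are normalised read counts, that is, read counts that the authors divided by 1 factor per library. Reads counted on these genes ranged from 11932163 to 15385822 per library, which is part of each library and not its depth. The authors had already cut the table by their own test on these 6 libraries, keeping adjusted p-values up to 0.05 and log2 fold changes of 1 or more in either direction. Every member had therefore been selected for a difference between the genotypes, and the direction of its change is partly fixed by that selection. Mul1 itself was at 965 to 1753 in Mul1(-/-) livers and 3172 to 3423 in Mul1(+/+) livers, or 38.2% of the Mul1(+/+) mean (log2 fold change -1.44, adjusted p = 0.0126 from limma). It was lower without overlap but missed the threshold used here, and 710 to 1996 reads remained in the libraries labelled Mul1(-/-), so these counts do not show a full loss of the transcript. Whether those reads lie outside the disrupted part of the gene was not tested. Mul1(-/-) replicate 3 stood apart, with the Mul1(-/-) value closest to the Mul1(+/+) side in 61.5% of the 1530 lower genes and 71.7% of the 2012 higher genes of the table. It also held the most Mul1 of its group, at 1753 against 1037 in replicate 1 and 965 in replicate 2. Nothing in the labels says more of the animals than their genotype, so p-values measure the spread among these 6 libraries.

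Cytochrome P450 enzymes are haem proteins that insert 1 oxygen atom into a substrate. Most lie in the endoplasmic reticulum of hepatocytes and take electrons from NADPH-cytochrome P450 oxidoreductase and cytochrome b5, whereas mitochondrial P450s take them from ferredoxin. Liver P450s of the Cyp1 to Cyp3 families clear drugs, steroids and other lipids. Cyp4 enzymes hydroxylate the end of fatty acid chains, and Cyp7, Cyp8 and Cyp27 enzymes make bile acids. In rodent liver the level of many of them differs between the sexes under the control of growth hormone, and others are induced by foreign compounds through the nuclear receptors CAR and PXR or through AHR.

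Of the 25 Cyp genes, 17 were lower and 8 were higher in the HFD-liver of Mul1(-/-) mice. The median log2 fold change (Mul1(-/-) minus Mul1(+/+), on log2 of the normalised read count plus 1) was -1.25, against 1.12 over all genes of the table. The lower members made up 68.0% of the Cyp genes, and lower genes made up 43.2% of the table. The authors' cut left no gene near 0, so the sign of each median follows from these shares. The gap between the medians is therefore largely the same difference in shares. In whole liver, fewer cells of a type and less RNA per cell cannot be told apart. A gene was called at an adjusted p-value below 0.01 from limma and a log2 fold change beyond 1 in either direction. Cyp2b10, Cyp2c29, Cyp2b9 and Cyp2c50 fell past it, where 7.43% of the table was called lower. Cyp2a4 and Cyp2d12 rose past it, where 16.7% of the table was called higher. The other 19 members did not pass. The groups did not overlap for 15 lower members and 6 higher members, against 41.0% and 49.3% of the table in the same directions. An exact permutation test on 3 against 3 libraries gives p = 0.1 at the least, which these genes reached.

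How many members passed depended on the scale. Each rescaling could use only the genes of the table, which were all selected for a difference, 2012 higher and 1530 lower. Centring such a table by the median ratio lowers fold changes throughout, so more lower calls are partly built into it. When libraries were rescaled by their median ratio, which moved the median of all genes by -0.66, 9 Cyp genes were called lower and 2 higher, with 1031 and 236 genes of the whole table. After rescaling by the table's total, which moved that median by -0.30, 10 were called lower and 2 higher, with 724 and 619 of the table. On the deposited scale the table held 263 lower and 591 higher calls. No member changed direction under either rescaling, nor under rescaling by the total without mitochondrial transcripts, in which 4 were called lower and 2 higher.

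**Figure D1:**
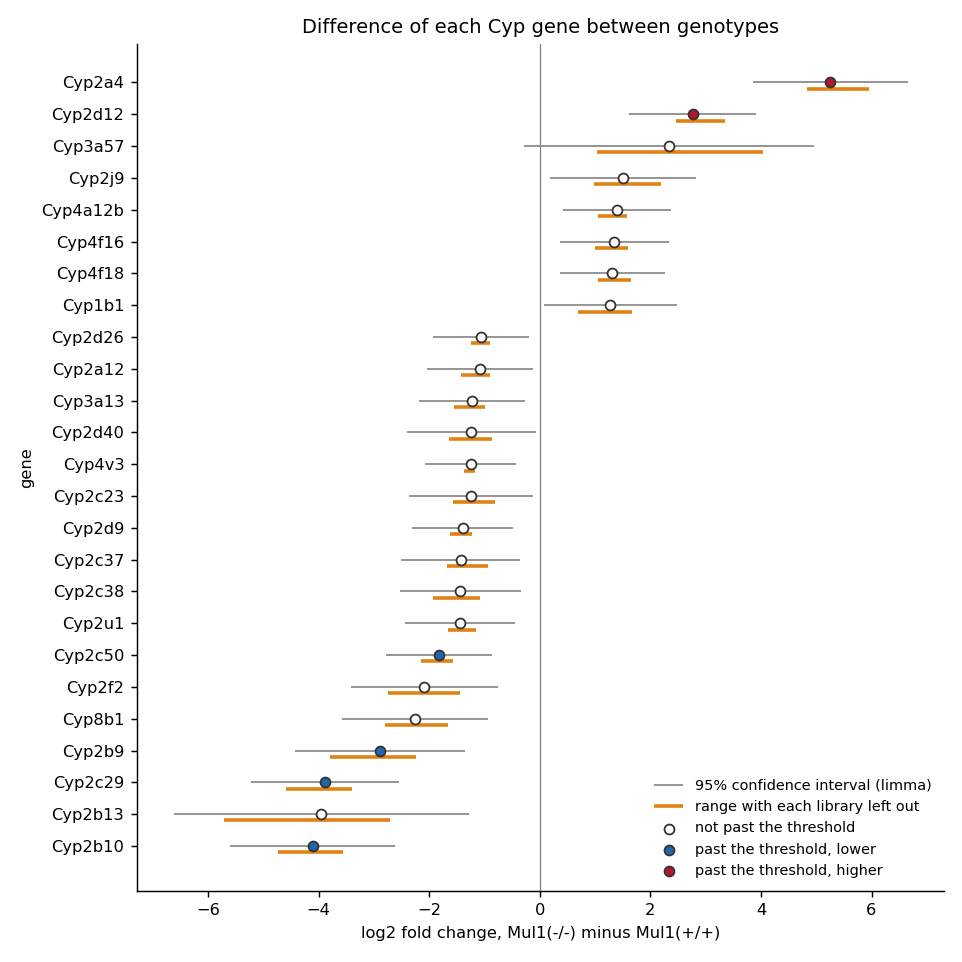
Log2 fold change of each Cyp gene (x axis, Mul1(-/-) minus Mul1(+/+), limma on 3 and 3 libraries), with its 95% confidence interval in grey and the range with each library left out in orange; filled points passed the threshold. Among the 25 genes, 17 lie below 0 and 8 above, from -4.11 for Cyp2b10 to 5.26 for Cyp2a4, and the interval of Cyp3a57 is the one that spans 0.

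Neighbouring genes went in opposite directions on chromosome 7, where 6 members stand in a row on the plus strand of GRCm38 between positions 25897620 and 27133660. In order they are Cyp2b10, Cyp2b13, Cyp2b9, Cyp2a4, Cyp2a12 and Cyp2f2. All 3 Cyp2b genes were lower in Mul1(-/-) livers, and Cyp2a4, which begins 96.5 kb past the end of Cyp2b9, had the highest log2 fold change of the 25 members.

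Cyp2a4 hydroxylates steroids such as testosterone and is a female-predominant gene of mouse liver. Its normalised read counts were 119, 52.3 and 46.6 in Mul1(+/+) replicates 1, 2 and 3 and 967, 3766 and 4634 in Mul1(-/-) replicates 1, 2 and 3. All Mul1(-/-) values lay above all Mul1(+/+) values, and the lowest of them was replicate 1. The ratio of the means was 43.0 and the log2 fold change was 5.26 (SE 0.63; adjusted p = 0.00179 from limma). The call was lost without Mul1(+/+) replicate 2 (log2 fold change 5.09, adjusted p = 0.0240 from limma) and without Mul1(-/-) replicate 2 (4.98, adjusted p = 0.0244 from limma). Of the 50-base stretches of the Cyp2a4 transcript, 36.1% also occur in Cyp2a5, a close paralog outside the table, so that reads of the 2 genes may have been split or exchanged by the authors' counting.

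Cyp2b10 is the classic target of CAR and rises manyfold with phenobarbital. It had 66, 31 and 13 reads in Mul1(+/+) replicates 1, 2 and 3, or 55.6, 27.5 and 10.6 normalised, and 0, 0 and 3 reads in the Mul1(-/-) livers. The Mul1(-/-) level was thus at the floor of 3 reads, and the gene was one of the least abundant members in both groups. From the summed reads, 110 against 3, the Mul1(+/+) level was 27.3 times the Mul1(-/-) level (95% exact Clopper-Pearson interval 9.11 to 135, counting error only). Its log2 fold change of -4.11 (SE 0.67; adjusted p = 0.00518 from limma) depends on the added count, and was -1.78 with 10 added.

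Cyp2b9 and Cyp2b13 are female-predominant Cyp2b genes of mouse liver. Cyp2b9 was at 12308, 7008 and 1424 in Mul1(+/+) livers and at 779, 535 and 713 in Mul1(-/-) livers. The Mul1(-/-) values lay close together (676 ± 126, SD, n = 3), whereas the Mul1(+/+) values spread widely (6913 ± 5442, SD, n = 3). Every Mul1(-/-) value lay below the Mul1(+/+) values, and the log2 fold change was -2.90 (SE 0.69; adjusted p = 0.00913 from limma). With a pseudocount of 0.5 it missed the threshold (adjusted p = 0.0108 from limma).

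Cyp2b13 was at 1442, 528 and 21.2 in Mul1(+/+) livers and at 11.7, 14.7 and 22.0 in Mul1(-/-) livers. The groups overlapped, because Mul1(+/+) replicate 3 lay within the Mul1(-/-) range. Its log2 fold change of -3.95 had an SE of 1.20 and did not pass (adjusted p = 0.0156 from limma), and without Mul1(+/+) replicate 3 it was -5.72 (adjusted p = 0.000582 from limma). Replicate 1 was the highest and replicate 3 the lowest Mul1(+/+) library for all 3 Cyp2b genes. The calls of Cyp2b10 and Cyp2b9 were lost without Mul1(+/+) replicate 1, without Mul1(+/+) replicate 2 or without Mul1(-/-) replicate 2, with adjusted p-values from limma between 0.0146 and 0.0381. Summed over the 3 genes, Mul1(-/-) livers held 9.10% of the Mul1(+/+) level. Of the 50-base stretches of Cyp2b13, 27.3% also occur in another gene, and of those of Cyp2b9 11.2%, so reads may be partly exchanged.

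**Figure D2:**
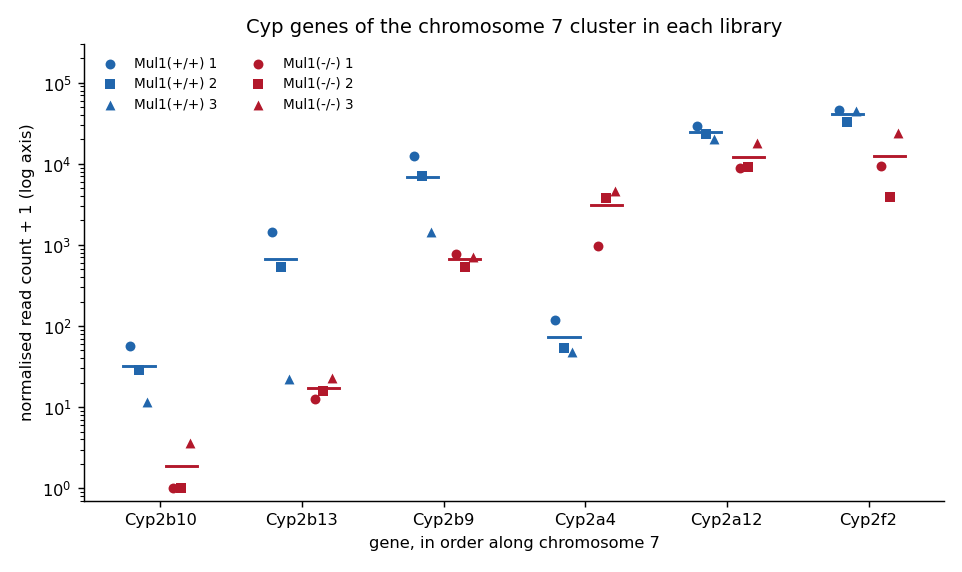
Normalised read count plus 1 (y axis, log scale) of the 6 Cyp genes in a row on chromosome 7; each symbol is 1 library, blue for Mul1(+/+) and red for Mul1(-/-), and each bar is the mean of 3 libraries. The Cyp2b genes sit lower in red, Cyp2a4 sits higher in red by 43.0 times, and Mul1(+/+) replicate 3 of Cyp2b13 (triangle) lies among the Mul1(-/-) libraries.

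The sequence just before the start of these genes is shown because Cyp2b9 fell and Cyp2a4 rose past the threshold in the same row of genes, and because Cyp2b13, which did not pass, has nearly the same sequence there as Cyp2b9. Each sequence is the 200 bases before the earlier of the RefSeq and GENCODE start sites, on the plus strand of GRCm38.p6, 5′ to 3′, from RefSeq. Capitals mark the 1 base at which Cyp2b9 and Cyp2b13 differ in these windows, and in Cyp2a4 a match to GTTAAT, the core of the site of HNF1, a liver transcription factor.
Cyp2b10, chr7:25897420-25897619: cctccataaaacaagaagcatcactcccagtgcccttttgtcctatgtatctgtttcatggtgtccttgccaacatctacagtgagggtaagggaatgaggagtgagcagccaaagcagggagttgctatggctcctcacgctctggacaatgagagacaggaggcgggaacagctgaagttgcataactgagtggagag
Cyp2b13, chr7:26061295-26061494: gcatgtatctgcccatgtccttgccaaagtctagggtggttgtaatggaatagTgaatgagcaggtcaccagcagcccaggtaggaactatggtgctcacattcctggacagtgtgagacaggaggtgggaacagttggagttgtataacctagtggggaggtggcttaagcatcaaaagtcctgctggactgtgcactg
Cyp2b9, chr7:26173209-26173408: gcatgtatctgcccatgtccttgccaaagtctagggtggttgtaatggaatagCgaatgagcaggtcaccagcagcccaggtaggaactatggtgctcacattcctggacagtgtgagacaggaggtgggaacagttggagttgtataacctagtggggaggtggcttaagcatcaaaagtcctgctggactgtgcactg
Cyp2a4, chr7:26306969-26307168: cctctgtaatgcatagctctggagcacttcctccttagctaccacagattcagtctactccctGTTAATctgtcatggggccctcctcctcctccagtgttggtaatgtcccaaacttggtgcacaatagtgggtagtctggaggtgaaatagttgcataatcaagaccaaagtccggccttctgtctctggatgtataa

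Over the 250 bases before the RefSeq start, Cyp2b9 and Cyp2b13 were 99.2% identical, although their mean normalised read counts in Mul1(+/+) livers were 6913 and 664. Cyp2b10 was 70.0% identical to each, and Cyp2a4 was 50.2% identical to Cyp2b9. RefSeq start regions were found for 21 of the 25 members, all but Cyp2d12, Cyp4a12b, Cyp2c23 and Cyp2u1. The letters AGGTCA, the core to which nuclear receptors bind, were in 5 of the 21 regions on either strand (Cyp2b13, Cyp2b9, Cyp2c29, Cyp2f2 and Cyp3a57), against 14.0% of 32851 start regions of the genome. The letters TATAAA of the TATA box were in 8 of the 21, against 12.4%, and GTTAAT in 2, Cyp2a4 and Cyp2d26, against 6.43%. TGTTTAC, the core of the site of the HNF3 factors, was in 1, Cyp2c38, against 3.17%. Direct repeats of AGGTCA spaced by 1 or 4 bases, the STAT5 letters TTCNNNGAA and the C/EBP letters TTGCGCAA were in none of the 21, against 0.033%, 0.015%, 7.02% and 0.164% of all regions. These matches describe the letters in a short window and are not binding sites.

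Further along, Cyp2a12, which hydroxylates steroids and bile acids, had a log2 fold change of -1.08 and did not pass. Cyp2f2, known for activating naphthalene and for its periportal place in the liver lobule, was at 45496, 33150 and 44536 in Mul1(+/+) livers and at 9328, 3929 and 23816 in Mul1(-/-) livers. The groups did not overlap, and Mul1(-/-) replicate 3 was the highest of its group by more than 2 times. Its log2 fold change was -2.09 (SE 0.60; adjusted p = 0.0136 from limma), and without Mul1(-/-) replicate 3 it was -2.75 (adjusted p = 0.000821 from limma).

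The enzymes of the 5 Cyp2c genes turn arachidonic acid into epoxides and also oxidise drugs. All 5 genes were lower in Mul1(-/-) livers without overlap, as 41.0% of the table was. Their summed level was 122215, 88944 and 68635 in Mul1(+/+) livers and 24215, 20682 and 24880 in Mul1(-/-) livers, or 24.9% of the Mul1(+/+) mean. Cyp2c29 and Cyp2c50 passed the threshold.

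Cyp2c29 was at 46252, 36684 and 25377 in Mul1(+/+) livers and at 1781, 1172 and 6285 in Mul1(-/-) livers. It was 11.7 times higher in the Mul1(+/+) mean, with a log2 fold change of -3.89 (SE 0.60; adjusted p = 0.00433 from limma). Among the 5 members with the highest mean, Cyp2c29 had the largest fold change, while the difference in normalised read count was wider for Cyp2d9. Cyp2c50 was at 34456, 27003 and 15583 in Mul1(+/+) livers and at 7326, 8002 and 5597 in Mul1(-/-) livers, with a log2 fold change of -1.82 (SE 0.43; adjusted p = 0.00895 from limma).

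The call of Cyp2c29 was lost without Mul1(+/+) replicate 1, Mul1(+/+) replicate 2 or Mul1(-/-) replicate 2, with log2 fold changes from -3.86 to -3.39 and adjusted p-values from limma of 0.0137 to 0.0281. That of Cyp2c50 was kept only without Mul1(-/-) replicate 3, and the other 5 omissions gave log2 fold changes of -2.14 to -1.57 (adjusted p = 0.0126 to 0.0412 from limma). With a pseudocount of 0.5 Cyp2c50 missed the threshold (adjusted p = 0.0101 from limma). Cyp2c38 (-1.44), Cyp2c37 (-1.43) and Cyp2c23 (-1.25), the last an epoxygenase best known from kidney, did not pass. Of the 50-base stretches of Cyp2c50, 30.7% also occur in another gene, and 21.2% in Cyp2c37, so reads may be partly exchanged. Cyp2c23 shares none with another gene, and Cyp2c29 shares 2.08%. Cyp2c29, Cyp2c38, Cyp2c37 and Cyp2c50 stand in this order on chromosome 19 between positions 39269405 and 40113950, and Cyp2c23 lies 3891 kb further on.

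Among the 4 Cyp2d genes, 3 were lower and Cyp2d12 rose. Cyp2d12 was at 43.8, 53.1 and 41.7 in Mul1(+/+) livers and at 472, 481 and 141 in Mul1(-/-) livers. All Mul1(-/-) values were above the Mul1(+/+) values, and replicate 3 was the lowest of them. The log2 fold change was 2.76 (SE 0.52; adjusted p = 0.00692 from limma), and the call was lost without Mul1(-/-) replicate 2 or any 1 of the 3 Mul1(+/+) libraries, with log2 fold changes of 2.47 to 2.87 (adjusted p = 0.0219 to 0.0301 from limma). It belongs to the Cyp2d group, of which mice have more genes than humans.

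Cyp2d9, a male-predominant testosterone hydroxylase, had the highest mean normalised read count of the Cyp genes over the 6 libraries, and Cyp2d26 was above it in the Mul1(-/-) mean (24782 against 21824). Cyp2d9 was at 42469, 70404 and 58126 in Mul1(+/+) livers and at 29216, 17281 and 18973 in Mul1(-/-) livers. There was no overlap, but the log2 fold change of -1.39 (SE 0.41) did not pass (adjusted p = 0.0146 from limma). Cyp2d12 starts 98.2 kb beyond the end of Cyp2d9 on chromosome 15. It was far less abundant than Cyp2d9. Of its 50-base stretches, 17.9% also occur in another gene, and 11.1% in Cyp2d9.

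Cyp2d26 was at 57717, 52094 and 43842 in Mul1(+/+) livers and at 23829, 19377 and 31142 in Mul1(-/-) livers, again without overlap. Its log2 fold change of -1.07 (SE 0.39) was the smallest of the lower members and did not pass (adjusted p = 0.0260 from limma). Cyp2d40 had a log2 fold change of -1.24 and its groups overlapped, since Mul1(-/-) replicate 3 (3453) lay above Mul1(+/+) replicate 1 (3030).

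In the other Cyp2 subfamilies, Cyp2u1, which hydroxylates long-chain fatty acids, was lower (-1.45) and Cyp2j9, an epoxygenase of the Cyp2j group, was higher (1.51), and neither passed. Cyp2j9 was at 102 to 180 in Mul1(+/+) livers, and Mul1(-/-) replicate 3 (154) lay within that range, below 818 and 497 in the other Mul1(-/-) libraries. It shares no 50-base stretch with another gene.

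Cyp8b1, the sterol hydroxylase that sets the share of cholic acid in bile, was at 8480 to 18851 in Mul1(+/+) livers and at 1257 to 6093 in Mul1(-/-) livers. The mean in Mul1(-/-) livers was 23.9% of the Mul1(+/+) mean. Its log2 fold change of -2.26 (SE 0.59) missed the threshold (adjusted p = 0.0111 from limma). Cyp8b1 passed after rescaling by the median ratio (-2.92, adjusted p = 0.00916 from limma) or by the total (-2.56, adjusted p = 0.00448 from limma). It did not pass after rescaling by the total without mitochondrial transcripts (-2.22, adjusted p = 0.0142 from limma). It was the single gene of 19 in a list of bile acid synthesis that is in the table, so no other step of that pathway could be compared.

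In the Cyp3 family, whose best known members oxidise steroids and many drugs, Cyp3a13 was at 9057, 9755 and 7071 in Mul1(+/+) livers and at 3206, 2620 and 5761 in Mul1(-/-) livers. The groups did not overlap, and the log2 fold change was -1.23 (SE 0.43; adjusted p = 0.0228 from limma). Cyp3a57 had 1, 2 and 1 reads in Mul1(+/+) livers and 0, 52 and 20 reads in Mul1(-/-) livers. Mul1(-/-) replicate 1 had no read, and the gene was not detectably expressed in 4 of the 6 livers beyond the floor of 3 reads. From the summed reads, 72 against 4, its Mul1(-/-) level was 24.1 times the Mul1(+/+) level (95% exact Clopper-Pearson interval 9.03 to 91.0, counting error only). The log2 fold change was 2.34 (SE 1.18; adjusted p = 0.0760 from limma). It was 1.04 without Mul1(-/-) replicate 2 and 4.04 without Mul1(-/-) replicate 1 (adjusted p = 0.371 and 0.000364 from limma).

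In the Cyp4 family, 1 gene was lower and 3 were higher, and none passed. Cyp4v3, a hydroxylase of the chain end of medium-chain fatty acids, made up nearly all of the family's level. It was at 28508, 27929 and 28604 in Mul1(+/+) livers and at 10877, 11027 and 14187 in Mul1(-/-) livers. Both groups were tight, at 28347 ± 365 and 12030 ± 1869 (SD, n = 3), and did not overlap. The log2 fold change was -1.25 (SE 0.37; adjusted p = 0.0147 from limma), and leaving out each library gave -1.37 to -1.18.

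The higher Cyp4 genes were Cyp4a12b (1.40), a male-predominant fatty acid hydroxylase, Cyp4f16 (1.35) and Cyp4f18 (1.31), a leukotriene hydroxylase known from neutrophils. None of the 3 overlapped between groups, and 49.3% of the table was higher without overlap. Cyp4f18 was at 20.2 to 25.7 in Mul1(+/+) and 35.1 to 80.8 in Mul1(-/-) livers. Cyp4a12b shares 49.4% of its 50-base stretches with Cyp4a12a, which is outside the table, so its counts are uncertain, and Cyp4f16 shares 24.8% with Cyp4f37. Cyp1b1, an AHR-induced hydroxylase of oestrogens and aromatic hydrocarbons, was the only Cyp1 gene of the table. It had a log2 fold change of 1.28, with 134 in Mul1(-/-) replicate 3 against 33.6 and 45.3 in the other Mul1(-/-) livers, and its value without that replicate was 0.69.

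**Figure D3:**
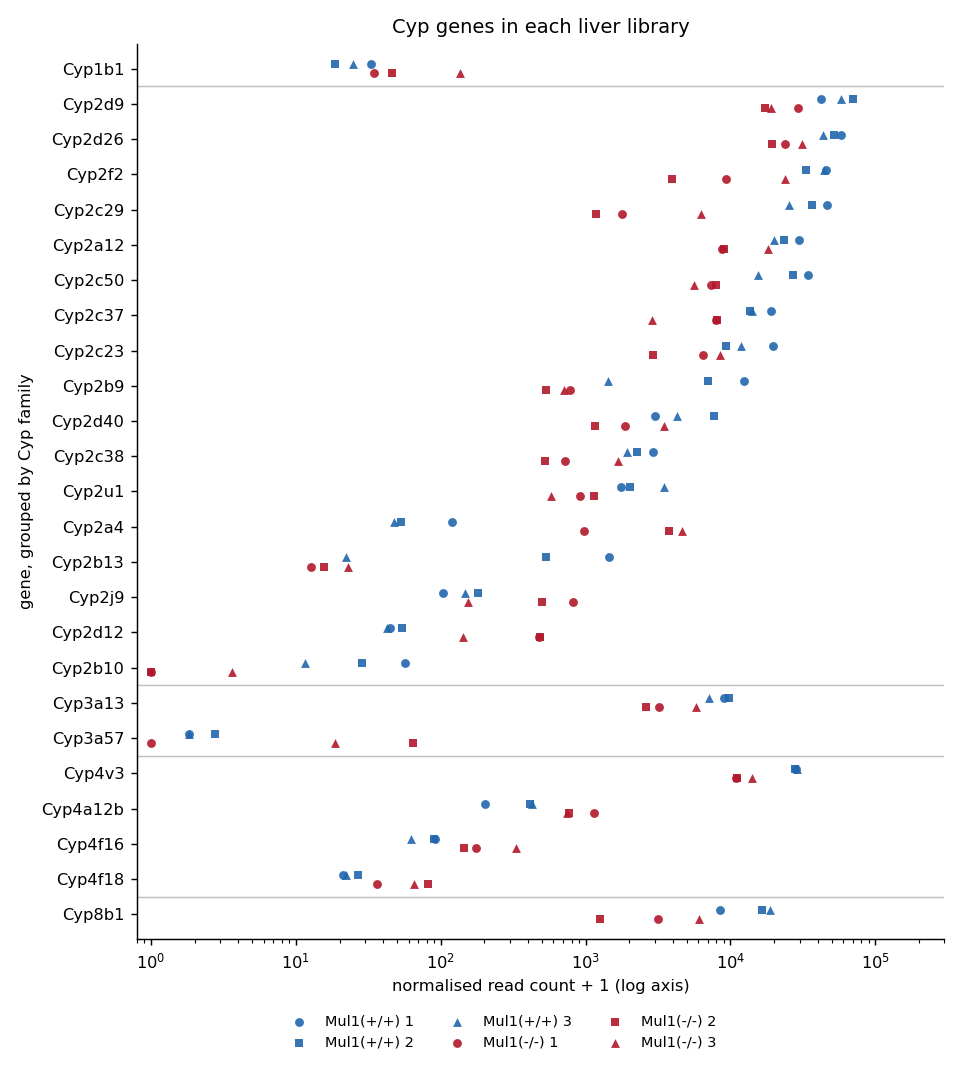
Normalised read count plus 1 (x axis, log scale) of the 25 Cyp genes, ordered by mean within each family (grey lines part the families); each symbol is 1 library, blue for Mul1(+/+) and red for Mul1(-/-). The abundant genes are lower in red, Cyp2a4 and Cyp2d12 are higher in red, and 4 genes overlap between the groups (Cyp2b13, Cyp2d40, Cyp2j9 and Cyp3a57).

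The direction of the members differed with their abundance. Of the 16 members with a mean normalised read count of 1000 or more, 15 were lower and Cyp2a4 was higher, and 62.2% of such genes in the table were lower. Between 100 and 1000, 1 of 5 members was lower, Cyp2b13, where 49.0% of the table was. Under 100, 1 of 4 was lower, Cyp2b10, where 13.7% of the table was. The authors' selection by fold change and p-value also acts on level, and no test was made of this pattern.

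**Figure D4:**
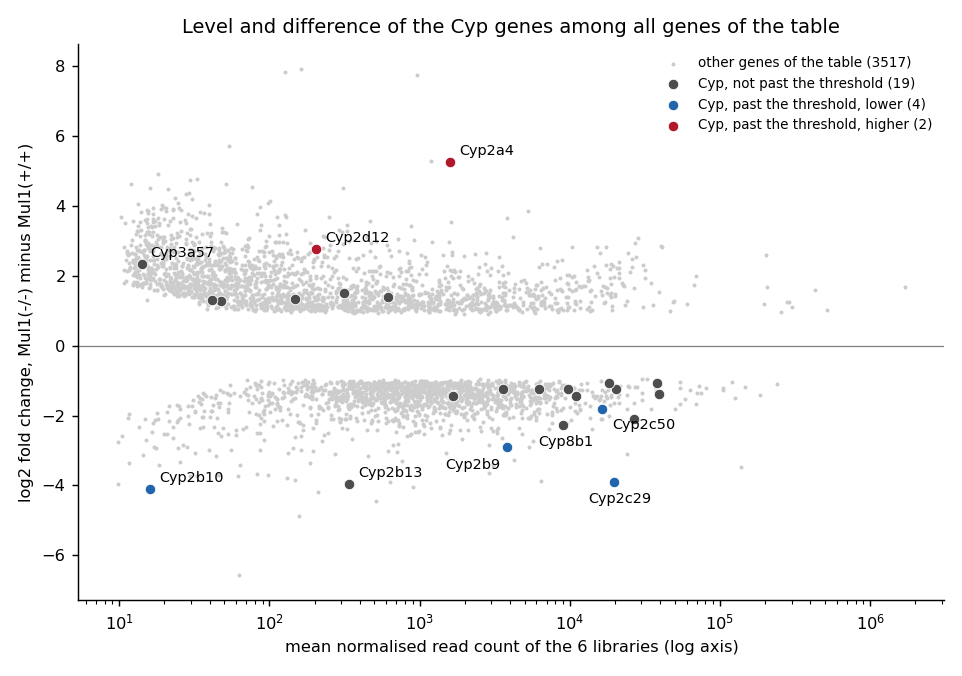
Mean normalised read count of the 6 libraries (x axis, log scale) against log2 fold change (y axis, Mul1(-/-) minus Mul1(+/+)) for all genes of the table in grey and the 25 Cyp genes in dark grey, blue (past the threshold, lower) and red (past the threshold, higher). No gene lies near 0 because the authors' selection removed such genes, and 15 of the 16 Cyp genes at 1000 or more lie below 0.

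Summed over the 25 genes, the level was 362746, 340298 and 299667 in Mul1(+/+) livers and 119834, 93935 and 154107 in Mul1(-/-) livers. The groups did not overlap, and the Mul1(-/-) mean was 36.7% of the Mul1(+/+) mean. It was 24.4% after rescaling by the median ratio, 31.9% after rescaling by the total and 39.0% without mitochondrial transcripts in that total. The 17 lower members held 99.8% of the Mul1(+/+) sum. Each was selected on these same libraries for a log2 fold change of 1 or more in size. The fall of the sum and its size are therefore partly fixed by that selection. Annotated Cyp genes outside the table are not in the sum, so it is not the total P450 level of the liver. The 8 higher members added little to the sum, at 0.220% of it in Mul1(+/+) and 4.27% in Mul1(-/-) livers. The Cyp2c genes went from 27.9% of the sum in Mul1(+/+) to 19.0% in Mul1(-/-) livers, the Cyp2b genes from 2.28% to 0.565% and the Cyp2d genes from 33.9% to 40.1%.

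Per kilobase of the longest coding transcript, the levels of the Mul1(+/+) livers were led by Cyp2d9 (33294), Cyp2d26 (30128), Cyp2f2 (22005) and Cyp2c29 (20249). In Mul1(-/-) livers Cyp2d26 (14578) and Cyp2d9 (12747) led, and the mean of Cyp2c29 (1727) was slightly below that of Cyp2a4 (1797). That order rests on Mul1(-/-) replicate 2, with normalised read counts of 1172 for Cyp2c29 and 3766 for Cyp2a4. Cyp2c29 was the higher of the pair in replicate 1 (1781 against 967) and replicate 3 (6285 against 4634). In the Mul1(+/+) livers Cyp2a4 stood at 41.7 per kilobase.

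**Figure D5:**
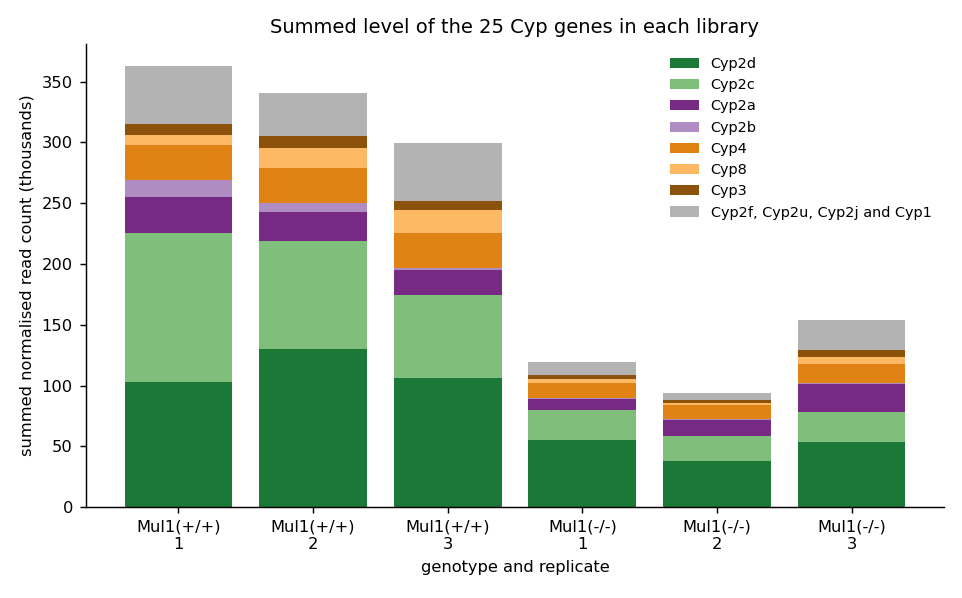
Summed normalised read count (y axis, in units of 1000 from 0) of the 25 Cyp genes in each of the 6 libraries, stacked by subfamily or family. The 3 Mul1(+/+) bars reach 299667 to 362746 and the 3 Mul1(-/-) bars 93935 to 154107, with the Cyp2c part shrinking from 68635 or more to 24880 or less.

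Within the groups, the 17 lower members did not all vary together. Mul1(-/-) replicate 3 was the highest Mul1(-/-) library for 12 of them, with 61.5% of the lower genes of the table, and replicate 2 was the lowest for 10, with 73.3%. In the Mul1(+/+) livers replicate 1 was the highest for 11 of the 17, with 50.9% of lower genes of the table, and replicate 3 was the lowest for 9, with 17.8%. Without Mul1(-/-) replicate 3, 12 members were called lower and 4 higher, while the table had 1078 and 1595 calls. The members that passed in addition were Cyp8b1, Cyp2f2, Cyp2c38, Cyp4v3, Cyp2d40, Cyp3a13, Cyp2a12 and Cyp2d26 among the lower ones and Cyp4a12b and Cyp2j9 among the higher ones.

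The partners of P450 enzymes were read from a list of 10 genes that carry electrons to them or bind them, 5 of which are in the table. Cyb5b, a cytochrome b5 of the outer mitochondrial membrane, fell (log2 fold change -2.11, adjusted p = 0.00798 from limma), and its call was lost with any 1 library left out except Mul1(-/-) replicate 3 (-2.29 to -1.82, adjusted p = 0.0118 to 0.0324 from limma). Pgrmc2, a haem-binding membrane protein, and Cyb5r3, the cytochrome b5 reductase, were at -1.65 and -1.43 and did not pass. The ferredoxin Fdx1 and its reductase Fdxr serve mitochondrial P450s. Fdx1 was higher, at 5817 to 10710 against 2817 to 4943, and Fdxr was at 1.31 with overlapping groups, and neither passed. Of 13 genes of haem synthesis and breakdown, 3 are in the table, with none called: Alas2, the erythroid form of the enzyme that begins haem synthesis, at -1.70, Uros, an enzyme of the same pathway, at 1.23, and Blvra, which reduces biliverdin, at 1.13.

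Of 35 nuclear receptors and other factors that act on Cyp genes, 7 are in the table, all lower and without overlap, with a median of -1.48. In the table as a whole, which was selected for differences, 41.0% of genes were lower without overlap. Ppara, the fatty acid sensor that induces Cyp4a genes, fell from 9160, 4544 and 8443 to 2570, 1963 and 2002 (log2 fold change -1.71, adjusted p = 0.00977 from limma). Its call was lost with any 1 library left out except Mul1(-/-) replicate 3, with values of -2.02 to -1.52 (adjusted p = 0.0126 to 0.0450 from limma), and with a pseudocount of 0.5 or rescaling by the total without mitochondrial transcripts (adjusted p = 0.0109 from limma in both). Hnf4a (-1.81) and Rxra (-1.48) did not pass. CAR, PXR and AHR themselves (Nr1i3, Nr1i2 and Ahr) are not in the table and were not analysed here. Of 35 PPARα target genes outside the Cyp family, 8 are in the table, 7 lower and 1 higher, with none called.

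CAR and PXR also induce conjugating enzymes and transporters, and 9 of 28 such genes outside the Cyp family are in the table, 5 lower and 4 higher. Ugt1a1, which conjugates bilirubin, fell (-3.89, adjusted p = 0.00797 from limma), as did the glutathione transferase Gstt3 (-2.50, adjusted p = 0.00692 from limma). Sult1e1, the oestrogen sulfotransferase, rose (3.75, adjusted p = 0.00697 from limma), as did Gsta1 (2.50, adjusted p = 0.00701 from limma). Each of these 4 calls was lost without any 1 Mul1(+/+) library or without Mul1(-/-) replicate 2 (adjusted p = 0.0137 to 0.0344 from limma). Gsta1 and Nqo1 (1.57, not past the threshold) are the 2 of 10 AHR targets in the table, and both were higher, as Cyp1b1 was.

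Sex-dependent genes also went both ways. Of 28 female-predominant genes of mouse liver, 6 are in the table: Cyp2a4 rose, Cyp2b9 fell, and Cyp2b13, Acot3 (-1.85), Hao2 (-1.77) and Prlr (-1.36) were lower without passing. Of 25 male-predominant genes, 9 are in the table, 4 higher and 5 lower. Selenbp2 rose (3.86, adjusted p = 0.00599 from limma) and Elovl3 fell (-2.89, adjusted p = 0.00701 from limma), and both calls were lost without any 1 Mul1(+/+) library or without Mul1(-/-) replicate 2 (adjusted p = 0.0136 to 0.0312 from limma). Cyp2d9 and Cyp2f2 were lower while Cyp4a12b was higher. None of 6 genes of the sex chromosomes used to tell the sexes apart is in the table, so the sex of the animals was not checked and its part in these values was not tested.

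Markers of liver cell types were read beside the Cyp genes. Of 14 hepatocyte markers, 5 are in the table (Apob, Trf, Fga, Hnf4a and Tat), and these 5 were lower without overlap, as 41.0% of the table was, with a median log2 fold change of -1.18 and none called. Their summed level was 658898 to 777214 in Mul1(+/+) and 250398 to 395863 in Mul1(-/-) livers. Of 7 bile duct markers, 4 are in the table and were higher without overlap, as 49.3% of the table was (summed level 1292 to 1891 and 4878 to 5100). Most of that sum was Spp1, at 1109 to 1645 and 3336 to 4613. Krt19 was at 1151, 176 and 147 in Mul1(-/-) replicates 1, 2 and 3. Epcam and Spp1 were called, where 16.7% of the table was called higher. Those 2 calls were lost after rescaling by the median ratio and without any 1 Mul1(+/+) library or Mul1(-/-) replicate 2, and that of Spp1 also after rescaling by the total and without Mul1(-/-) replicate 1 (adjusted p = 0.0103 to 0.0501 from limma). The 2 stellate cell markers in the table, Col3a1 and Dcn, were higher (4314 to 5241 and 8482 to 28580) and the 2 endothelial ones, Pecam1 and Clec4g, were lower (3352 to 3910 and 1184 to 2140), with none called. No Kupffer cell, lymphocyte or adipocyte marker of the lists is in the table. The part of these shifts in the Cyp values was not tested. Zonal genes were few: of 16 pericentral genes Tbx3 (-1.42) and Aldh1a1 (-1.27) were lower and Rhbg (2.22) was higher, and of 16 periportal genes Cyp2f2 and Pigr (-1.68) were lower.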

How the data were processed

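Liver mRNA of 3 Mul1(+/+) and 3 Mul1(-/-) mice on HFD was sequenced, 1 library per mouse, and the libraries were made, sequenced and analysed by GENEWIZ. The authors compared the genotypes with DESeq2 and its Wald test. The deposited table holds 1 column of normalised read counts per library, which the authors made by dividing reads by 1 factor per library. A read was worth 0.817 to 1.46 in these units, depending on the library, and 100% of values below 10000 were whole numbers of reads to within 0.1 read, so that reads could be recovered for floors and counting intervals. Aligner, counting tool, genome build, annotation and strand are not given in the sources used here. The authors' own log2 fold changes, p-values and adjusted p-values, also deposited, were read only to check which limits the table was cut at (adjusted p-value 0.05, absolute log2 fold change 1).

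limma 3.58.1 in R 4.3.3 was fitted to log2(value + 1) of all 3542 genes with genotype as the only term. Benjamini-Hochberg adjustment ran over the whole table, calls needed an adjusted p-value below 0.01 with a log2 fold change beyond 1 in either direction, and low values were not filtered. The fold change of genes with few reads is understated on this scale. These p-values are not independent of the authors' selection, which used the same mice. The fit was tested on simulated data. Other steps ran in Python 3.11.15 (scipy 1.17.1, pandas 2.3.3, numpy 2.4.6; figures in matplotlib 3.10.9). Coordinates and transcripts are from GENCODE M21 on GRCm38, matched by Ensembl identifier for 3531 of the 3542 genes, and start regions are from RefSeq on GRCm38.p6. The authors' build may differ. Shared 50-base stretches were counted between the longest coding transcript of each member and all other genes.

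All Cyp genes are named. Values in every library are given for genes past the threshold, the 5 with the highest mean, the 3 largest rises and falls, and the most abundant gene of each family of 2 or more. From the other lists at most the 4 largest changes are named, besides cell type markers. Some results of these lists are not reported here. The members and lists were chosen with earlier results of these data known. Alternatives were other scalings, pseudocounts of 0.5 and 10, a filter on means under 10, limma with an intensity trend, an adjusted p-value of 0.05, a block for the replicate number, and leaving out 1 library at a time.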

Additional observations from a re-analysis of the deposited data

How the results depend on the processing

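No Cyp gene and no other gene named changed direction under any alternative that was run, which the authors' selection of the table by fold change favours. Of the comparisons of a Cyp gene with 1 alternative, 286 stayed on the same side of the threshold, 36 passed it anew and 28 no longer passed. The median log2 fold change of the Cyp genes was -1.91 and their summed Mul1(-/-) level 24.4% of Mul1(+/+) after rescaling by the median ratio. On the deposited scale the median was -1.25, also with Cyp2b10 and Cyp3a57 at either end of their counting intervals. It could not move there, because each of these genes stays on its own side of the median. Calls in the table (higher and lower) were 236 and 1031 after rescaling by the median ratio, and the lower calls were 724 by the total and 171 by the total without mitochondrial transcripts, 172 with a pseudocount of 0.5 and 680 with 10. They were 964 and 905 with an intensity trend and 1877 and 1503 at an adjusted p under 0.05. Cyp genes called lower numbered 9 by the median ratio, 10 by the total, 2 with a pseudocount of 0.5, 8 with 10 and 12 with the trend, and at an adjusted p under 0.05 the Cyp calls were 7 higher and 17 lower. The labels do not say whether the replicate numbers pair the libraries. Same-numbered libraries correlated in their deviations from the group means at 0.0218, 0.352 and 0.0541. Differently numbered ones correlated at -0.200 to 0.132, and a shared effect of the replicate number was not tested. With the replicate block, limma called 0 genes of the table and 0 Cyp genes in either direction, with 1801 higher and 1476 lower genes of the table and 5 higher and 15 lower Cyp genes at an unadjusted p under 0.05. Leaving out each library gave 9 to 1595 higher and 1 to 1078 lower calls in the table, and 0 to 4 higher and 0 to 12 lower Cyp calls. The count of 0 lower Cyp calls came without Mul1(+/+) replicate 1, Mul1(+/+) replicate 2 or Mul1(-/-) replicate 2, where 11, 13 and 11 had an unadjusted p under 0.05, and that of 0 higher calls without either replicate 2, where 5 and 6 did. In the 2 against 3 fits the variance was pooled over both groups. Count tests on recovered reads with edgeR or DESeq2 were not run. Cyp2b10, Cyp3a57 and other genes with few reads are limited by depth, and genes outside the table could not enter any scaling.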

Other observations

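Further lists bear on P450 substrates. Of 17 genes of bile acid transport and sensing, 4 are in the table. Klb, the co-receptor through which FGF15 restrains bile acid synthesis, fell (log2 fold change -2.12, adjusted p = 0.00999 from limma), and Slc51b, a subunit of the basolateral bile acid exporter, rose (2.20, adjusted p = 0.00916 from limma), from 6.53 to 27.0 in Mul1(+/+) to 45.3 to 65.8 in Mul1(-/-) livers. Abcg8 (-1.16) and Abcc3 (-1.01) did not pass. The calls of Klb and Slc51b were kept, of the 6 omissions of a library, only without Mul1(-/-) replicate 3 (adjusted p = 0.0126 to 0.0398 from limma in the others).

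Of 14 genes of growth hormone signalling and sex-dependent control, Stat5b (-1.02) and Prlr (-1.36) are in the table and did not pass. Of 18 genes of arachidonic acid epoxides and other eicosanoids, the 2 in the table were the Cyp members Cyp2j9 and Cyp4f18. Both were higher and neither was called. This list leaves out the 5 Cyp2c members, whose enzymes also make such epoxides and which were all lower.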
